A study of Mus musculus with 4 samples.

Results

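The genes described here are the enzymes that conjugate or reduce reactive and foreign compounds in mouse mammary tumors, together with the regulators of the oxidative stress response. They were chosen by gene symbol: the glutathione transferases (Gst and Mgst), the UDP-glucuronosyltransferases (Ugt), the carbonyl reductases (Cbr), the aldehyde dehydrogenases (Aldh) and the aldo-keto reductases (Akr) whose symbols match a fixed pattern, and the 7 genes Nqo1, Hmox1, Gclc, Gclm, Nfe2l2, Keap1 and Ephx1. The pattern took 92 of the 23746 genes listed for each tumor, and it did not take Aldh2, which is given with other genes below. By family they were 20 cytosolic glutathione transferases, 4 mitochondrial or microsomal glutathione transferases, 21 glucuronosyltransferases, 4 carbonyl reductases, 19 aldehyde dehydrogenases, 17 aldo-keto reductases and the 7 single genes.

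PolyA RNA of 4 primary mammary tumors from female mice was sequenced. Tumors 26043 and 26044 were WapCre;Rank;Brca1;p53 (triple-mutant) and tumors 26048 and 26050 were WapCre;Brca1;p53 (double-mutant). All 4 carried the WapCre transgene and floxed Brca1 and p53, and only the triple-mutant tumors also carried floxed Rank, which encodes the receptor of RANKL. The question was how the transcriptome of tumors that arise without Rank in the mammary epithelium differs from that of tumors that arise with it. The Cre line used here, under the whey acidic protein promoter, is described in the study as active in mammary epithelium, luminal as well as basal. The age of the females is not given in the sources used here. Grade is not given tumor by tumor. The study describes high-grade as well as intermediate-grade tumors in the double-mutant genotype, and no high-grade tumors in the triple-mutant genotype. Without the grade of these 4 tumors, grade and genotype cannot be told apart. The study calls the females of the genotypes littermates, without saying which tumors share a litter or whether each tumor came from a separate female. P-values therefore measure the spread between these tumors.

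Glutathione transferases attach the tripeptide glutathione to electrophiles such as lipid peroxidation products, which makes them soluble and less reactive. Glucuronosyltransferases attach glucuronic acid to steroids, bilirubin, phenols and drugs, and carbonyl reductases, aldo-keto reductases and aldehyde dehydrogenases reduce or oxidise carbonyl compounds, including the aldehydes left by oxidised lipids and the retinaldehyde from which retinoic acid is made. Many of these genes are induced by NRF2 (encoded by Nfe2l2), a transcription factor that KEAP1 holds at low level until cells meet oxidants or electrophiles, and that binds antioxidant response elements in DNA.

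Expression is given as FPKM, fragments per kilobase of transcript, scaled to the total of mapped fragments, as the authors' Cufflinks run estimated it. Values are listed in the order 26043 and 26044 for the triple-mutant tumors, then 26048 and 26050 for the double-mutant tumors. A log2 difference is the mean of log2(FPKM + 1) in the triple-mutant minus that in the double-mutant tumors, so the changes of low genes are understated, and SE is its standard error from limma. Read depth was not recoverable from the values, and between 12150 and 12681 genes reached 1 FPKM in a tumor. Tnfrsf11a, the Rank gene, stood at 2.07 and 0.962 FPKM in the triple-mutant tumors and 10.6 and 11.9 FPKM in the double-mutant tumors (log2 difference -2.32, SE 0.37, limma adjusted p = 0.225), lower in both triple-mutant tumors but not absent. The tumors also differed in cell type markers. Of 8 basal and myoepithelial markers, 6 were higher in both triple-mutant tumors, with summed levels of 1304 to 1742 FPKM there and 48.6 to 72.8 FPKM in the double-mutant tumors. Of 7 fibroblast markers, 5 were higher in both double-mutant tumors, where the sum was 432 to 889 FPKM against 112 to 196 FPKM. Pdgfra, of the same list, was higher in both triple-mutant tumors (2.90 and 19.1 against 1.63 and 1.44 FPKM), and Dcn overlapped. Of 5 measured macrophage markers, 3 were higher in both double-mutant tumors (83.8 to 84.8 FPKM against 46.7 to 49.6 FPKM). Of 6 luminal keratin and epithelial markers, 3 were higher in both double-mutant tumors (Krt8, Krt18 and Elf5) and 1 in both triple-mutant tumors (Krt19). Their sum was 506 FPKM in tumor 26044 and 2108 to 3726 FPKM in the other 3 tumors. Of 4 hormone-sensing luminal markers, 3 were higher in both triple-mutant tumors (16.8 to 83.6 FPKM against 8.92 to 10.1 FPKM). The mean log2(FPKM + 1) of 5 differentiated keratinocyte markers was 2.26 and 0.906 in the triple-mutant and 0.684 and 0.365 in the double-mutant tumors. Among them Lor was higher in both triple-mutant tumors, Krt10 overlapped, and Krtdap reached 44.25 FPKM in tumor 26043 alone. Of all genes tested, 21.3% were higher in both triple-mutant tumors and 22.9% in both double-mutant tumors. Endothelial and erythroid markers overlapped between the genotypes, and 7 of 8 T and B cell markers stayed under 1 FPKM. The part of these cell types in the differences below was not tested, and in bulk tumor RNA fewer cells of a type and less RNA per cell cannot be told apart.

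Promoter sequence just upstream of the start is shown for 4 members with large differences between the genotypes (Mgst2, Ephx1, Cbr3 and Ugt1a6a), because their 300-base promoters hold no antioxidant response element core, and for 2 members whose promoters hold one, Gstm5 and the glutathione synthesis gene Gclm. Gstm7 (log2 difference 1.05) is not shown: a promoter of it holds the core, but the 150 bases before its start do not. Lack of the core does not set the 4 members apart, since only 17.5% of the tested genes with a promoter entry hold it. Each line gives the 150 bases before the transcription start, 5′ to 3′ on the gene's own strand, from RefSeq on GRCm38.p6. Capitals mark the core TGACNNNGC, or its reverse complement in Gclm.
Mgst2, chr3:51661029-51661178, plus strand: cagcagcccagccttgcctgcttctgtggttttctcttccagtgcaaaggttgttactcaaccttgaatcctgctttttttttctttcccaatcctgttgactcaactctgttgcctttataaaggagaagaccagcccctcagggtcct
Ephx1, chr1:181017570-181017719, minus strand: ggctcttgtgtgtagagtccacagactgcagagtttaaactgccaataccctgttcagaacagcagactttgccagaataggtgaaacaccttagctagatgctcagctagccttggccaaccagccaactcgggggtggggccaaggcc
Cbr3, chr16:93683069-93683218, plus strand: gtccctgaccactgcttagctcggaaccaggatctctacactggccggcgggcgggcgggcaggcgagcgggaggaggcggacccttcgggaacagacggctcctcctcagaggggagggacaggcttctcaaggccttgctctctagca
Ugt1a6a, chr1:88134659-88134808, plus strand: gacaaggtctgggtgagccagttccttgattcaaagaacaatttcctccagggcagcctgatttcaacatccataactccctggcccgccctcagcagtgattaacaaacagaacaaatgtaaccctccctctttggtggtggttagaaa
Gstm5, chr3:107895704-107895853, plus strand: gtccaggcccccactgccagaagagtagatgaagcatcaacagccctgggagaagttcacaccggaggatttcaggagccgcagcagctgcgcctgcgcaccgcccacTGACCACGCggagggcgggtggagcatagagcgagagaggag
Gclm, chr3:122245407-122245556, plus strand: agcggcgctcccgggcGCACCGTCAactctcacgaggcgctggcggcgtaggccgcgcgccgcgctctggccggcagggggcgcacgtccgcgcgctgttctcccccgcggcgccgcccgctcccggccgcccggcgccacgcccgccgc
The core begins 42 bases before the start in Gstm5 and 134 bases before it in Gclm. The windows also differ in composition: G and C made up 47.3% of the Mgst2 window, 48.0% of that of Ugt1a6a, 53.3% of that of Ephx1 and 66.7% of that of Cbr3. In the windows with the core the share was 64.0% for Gstm5 and 84.0% for Gclm.

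Of the 92 members, 54 reached 1 FPKM in at least 2 of the 4 tumors and were tested. Of the other 38, 10 were listed at 0 in every tumor, 21 more stayed under 1 FPKM in every tumor, and 7 reached it in a single tumor. No member, and 0 of the 12752 genes tested (0.0%), passed an adjusted p of 0.05 with limma, and with 2 tumors a genotype a single gene cannot reach a p below 0.333 in an exact permutation test. An unadjusted p under 0.05 was reached by 10 of 54 members and by 1252 of all genes (9.82%). The differences below are therefore described by their values and by whether the tumors of the genotypes overlap.

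The members leaned towards higher levels in the triple-mutant tumors. Of the 54, 19 (35.2%) had both triple-mutant values above both double-mutant values, against 21.3% of all genes tested. Only 5 (9.26%) were higher in both double-mutant tumors, against 22.9% of all genes. With a log2 difference of at least 1 as well, 13 were higher in the triple-mutant tumors, where 7.3% of all genes met both criteria, and 2 were higher in the double-mutant tumors, where 4.65% did. The median log2 difference was 0.33 over the members and -0.02 over all genes. Of the 54, 3 (Aldh1a1, Ugt1a6a and Ugt1a6b) passed the filter only through the triple-mutant tumors and so had to differ, and the 3 theta class genes lie in a chromosome segment that was high as a whole (below). Without these 6 members 13 of 48 (27.1%) were higher in both triple-mutant tumors, nearer to the 21.3% of all genes, and their median was 0.16. Tumor 26044 gave the highest value for 22 of the 54 members (40.7%), against 24.2% of all genes.

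**Figure D1:**
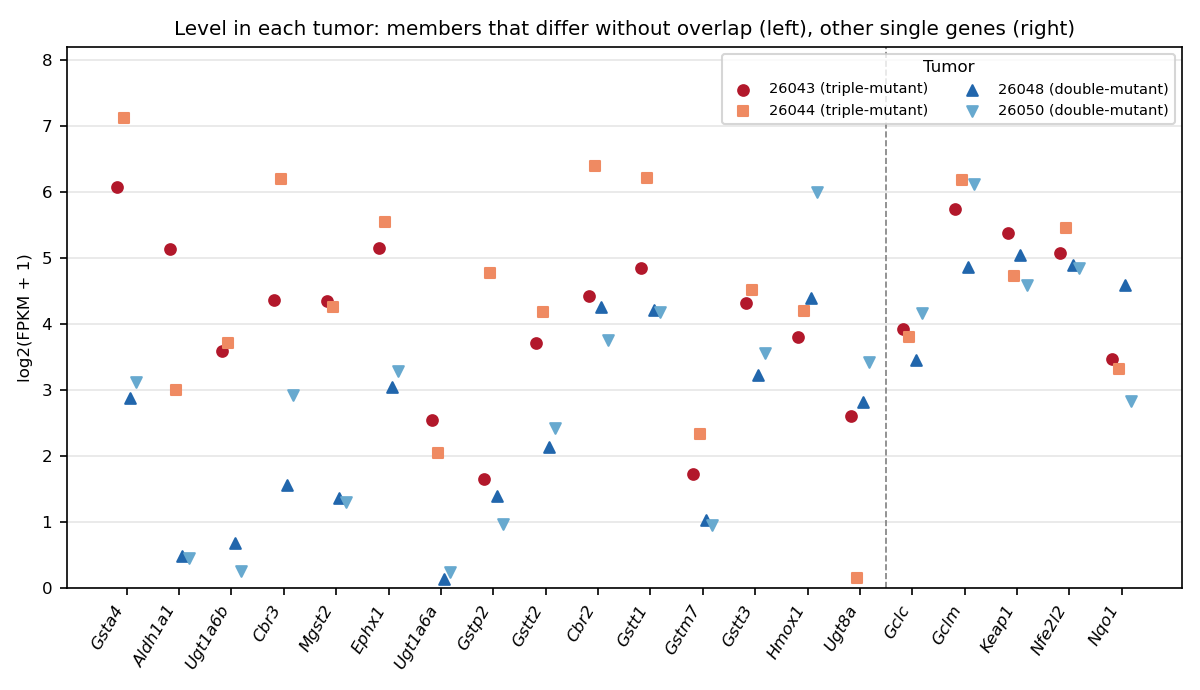
Level in each tumor, as log2(FPKM + 1), of the members written below the axis, with 1 symbol per tumor. To the left of the dashed line stand the 15 members whose genotypes did not overlap and whose log2 difference was at least 1 in size, ordered by that difference, and to its right the other single genes. Gsta4, Aldh1a1, Ugt1a6b, Cbr3, Mgst2 and Ephx1 have the largest log2 differences between the genotypes, whereas Hmox1 and Ugt8a were higher in the double-mutant tumors.

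The cytosolic glutathione transferases held more of these members than any other family. Of 13 tested, 9 were higher in both triple-mutant tumors (69.2%, against 21.3% of all genes). In both double-mutant tumors 1 was higher (7.69%, against 22.9%). The median log2 difference of the 13 was 0.97. The 9 include the 3 theta class genes, which lie in a chromosome segment that was high as a whole (below). Summed over all 20 genes, the family reached 457 and 692 FPKM in the triple-mutant tumors and 265 and 309 FPKM in the double-mutant tumors, a 2.002-fold difference of the means. The tumors did not overlap, and tumor 26044 was the highest. The median stayed between 0.94 and 0.97 when the values were rescaled in 3 other ways, and between 0.66 and 1.21 when each tumor in turn was left out.

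**Figure D2:**
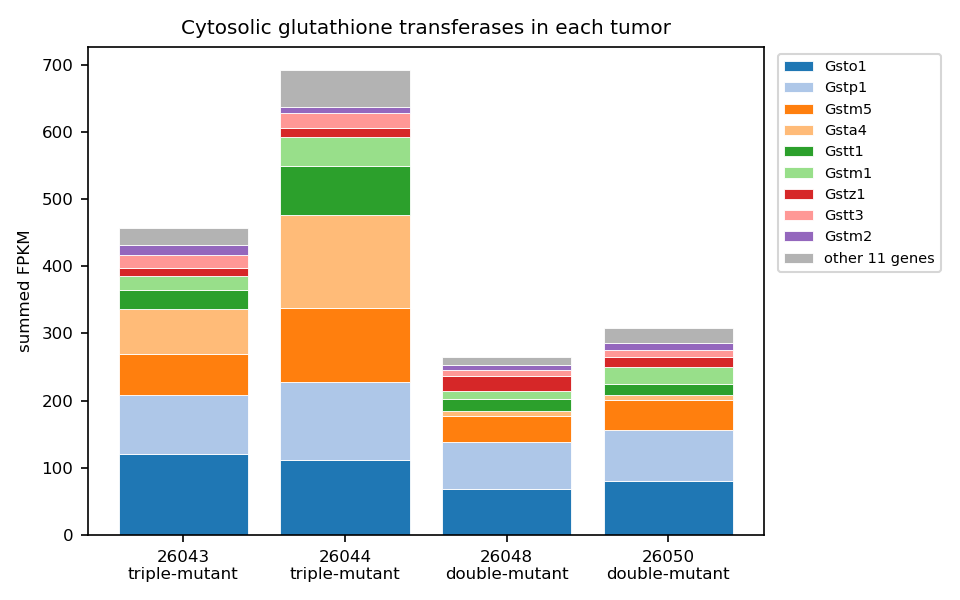
Summed FPKM of the 20 cytosolic glutathione transferases in each tumor, as stacked bars with the 9 genes of highest mean level shown singly. The bars reach 457 and 692 FPKM in the triple-mutant tumors and 265 and 309 FPKM in the double-mutant tumors, and the Gsta4 segment is wide in the former and thin in the latter.

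Gsta4, the alpha class enzyme that conjugates 4-hydroxynonenal and other alkenals from oxidised lipids, and Aldh1a1 (below) had the largest log2 differences of the members at a pseudocount of 1 FPKM, and this order changed with a pseudocount of 0.1 FPKM and with rescaling to TPM. The level of Gsta4 was 66.6 and 139 FPKM in the triple-mutant tumors and 6.36 and 7.68 FPKM in the double-mutant tumors (log2 difference 3.61, SE 0.44, limma adjusted p = 0.179), a 14.7-fold difference of the means. Every triple-mutant value lay above every double-mutant value, and the gap within each genotype was small beside the gap between them. In the triple-mutant tumors Gsta4 stood among the most abundant cytosolic transferases, beside Gsto1 and Gstp1, whereas in the double-mutant tumors it was a minor one. The other alpha class genes were not tested. Gsta3 was 0.965 and 0.119 FPKM in the triple-mutant tumors and 0.1298 and 9.52 FPKM in the double-mutant tumors, so that a single double-mutant tumor carried it.

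In the mu class, whose enzymes conjugate epoxides and quinones, all 5 tested genes had positive differences. Of them 2 did not overlap (40.0%, against 21.3% of all genes higher in both triple-mutant tumors). Gstm5, the most abundant of them, was 62.2 and 109 FPKM in the triple-mutant tumors and 38.8 and 44.5 FPKM in the double-mutant tumors (log2 difference 0.97, SE 0.37, limma adjusted p = 0.511). Gstm7 was low throughout, at 2.32 and 4.08 FPKM in the triple-mutant tumors and 1.04 and 0.942 FPKM in the double-mutant tumors (log2 difference 1.05, SE 0.36, limma adjusted p = 0.488). The triple-mutant tumors were the higher ones for both genes, and tumor 26044 the highest. Gstm1, Gstm2 and Gstm4 overlapped between genotypes, with log2 differences of 0.69, 0.38 and 0.02. Between 0% and 18.9% of the 50-base stretches of the tested alpha, mu, theta, omega and zeta transcripts also occur in another gene, so that their reads can be told apart for the most part.

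Gstp1 and Gstp2, the pi class, are adjacent on chromosome 19 and alike in sequence: 33.7% of the 50-base stretches of Gstp1 and 54.3% of those of Gstp2 occur elsewhere, and the split of reads between them is uncertain. Gstp1 was 87.5 and 117 FPKM in the triple-mutant tumors and 71.1 and 76.03 FPKM in the double-mutant tumors (log2 difference 0.45, SE 0.28, limma adjusted p = 0.632). Gstp2 was 2.14 and 26.5 FPKM in the triple-mutant tumors and 1.62 and 0.959 FPKM in the double-mutant tumors (log2 difference 2.04, SE 1.09, limma adjusted p = 0.588), so that its difference rested on tumor 26044, and without that tumor it was 0.47. Gsto1, an omega class enzyme that reduces dehydroascorbate and acts as a thioltransferase, was the cytosolic transferase of highest mean level, at 120.2 and 111 FPKM in the triple-mutant tumors and 67.9 and 80.01 FPKM in the double-mutant tumors (log2 difference 0.64, SE 0.26, limma adjusted p = 0.5302). These 3 genes did not overlap between the genotypes. Gstz1, the zeta class enzyme of tyrosine breakdown, was the only cytosolic transferase higher in both double-mutant tumors, at 12.96 and 12.9 FPKM in the triple-mutant tumors and 22.2 and 14.3 FPKM in the double-mutant tumors (log2 difference -0.43, SE 0.34, limma adjusted p = 0.691), and tumor 26048 stood above the other 3.

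All 3 tested theta class genes, which lie side by side on chromosome 10, were higher in both triple-mutant tumors. Gstt1, at chr10:75783813-75798584 on GRCm38, was 27.9 and 73.3 FPKM in the triple-mutant tumors and 17.5 and 17.1 FPKM in the double-mutant tumors (log2 difference 1.34, SE 0.52, limma adjusted p = 0.514). Gstt2, at chr10:75831845-75834881, was 12.1 and 17.2 FPKM in the triple-mutant tumors and 3.41 and 4.38 FPKM in the double-mutant tumors (log2 difference 1.67, SE 0.34, limma adjusted p = 0.342). Gstt3, at chr10:75774122-75781414, was 18.96 and 21.9 FPKM in the triple-mutant tumors and 8.402 and 10.8 FPKM in the double-mutant tumors (log2 difference 1.02, SE 0.30, limma adjusted p = 0.475). Tumor 26044 was the highest for each, most plainly for Gstt1.

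The theta genes did not stand alone in this segment. Of 33 other tested genes within 1 Mb of them, 25 were higher in both triple-mutant tumors and 0 in both double-mutant tumors. Over all genes tested these shares were 21.3% and 22.9%. With the values rescaled in other ways the first count lay between 19 and 26. The median log2 difference of the 33 genes was 1.44, which is close to that of the theta genes themselves. Without tumor 26044 the median of these neighbours was 0.41, and without tumor 26043 it was 2.40, so that tumor 26044 held most of the difference. The theta genes without tumor 26044 had a median of 0.92.

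For 5 other members with large differences the typical neighbour differed far less than the member. Within 1 Mb, the median log2 difference of tested neighbours was 0.02 for Gsta4 (10 genes), 0.20 for Mgst2 (9 genes), -0.36 for the Ugt1a6 genes (17 genes), -0.53 for Ephx1 (17 genes) and -0.20 for Cbr3 (11 genes). Single neighbours did differ, with 3110079O15Rik at 4.79 and Ngef at 2.31 near the Ugt1a6 genes and Cd109 at 2.72 near Gsta4. For the remaining members apart by at least 1 log2 unit, the medians were 0.29 for Cbr2 (54 genes), 0.15 for Gstp2 (49 genes), 0.08 for Gstm7 (25 genes), -0.83 for Aldh1a1 (3 genes), -0.62 for Hmox1 (4 genes) and -0.24 for Ugt8a (1 gene). Gclc, which lies 0.4 Mb from Gsta4, differed by 0.05, and Cbr1, which lies next to Cbr3, by 0.14.

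**Figure D3:**
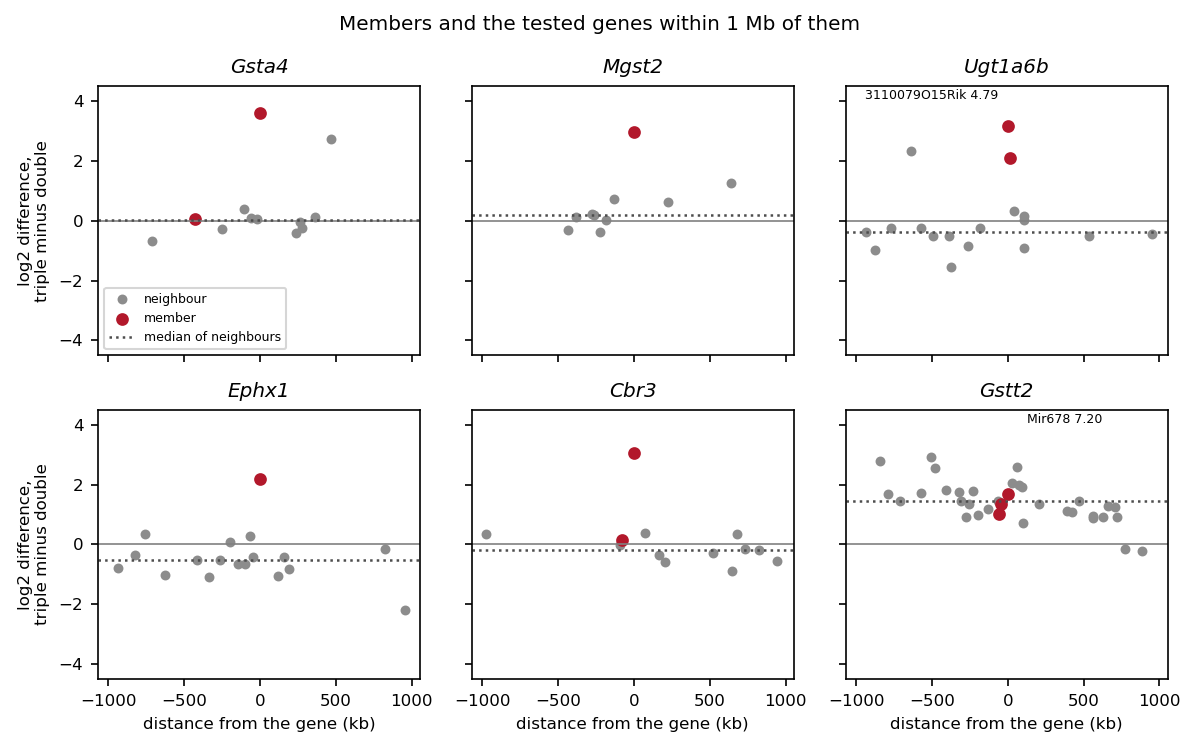
Log2 difference, triple-mutant minus double-mutant, of 6 members and of the tested genes within 1 Mb of each, against the distance in kb from the gene named above each panel. Red points are members, grey points other genes, and the dotted line is the median of the other genes. 2 genes beyond the axis are written at its upper edge with their value. For Gstt2 the grey points lie at the level of the members, whereas for the other 5 genes the member lies far above the median of its neighbours.

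Among the membrane and mitochondrial glutathione transferases the genes differed in direction. Mgst2, a microsomal enzyme with glutathione transferase and leukotriene C4 synthase activity, was 19.4 and 18.1 FPKM in the triple-mutant tumors and 1.59 and 1.48 FPKM in the double-mutant tumors (log2 difference 2.97, SE 0.30, limma adjusted p = 0.143), a 12.3-fold difference. Both pairs of tumors were tight, and Mgst2 shared with Ugt1a6b the smallest adjusted p of the members. Mgst1, the abundant microsomal transferase of the endoplasmic reticulum and mitochondrial outer membrane, was 319.7 and 233 FPKM in the triple-mutant tumors and 375 and 470.0 FPKM in the double-mutant tumors (log2 difference -0.62, SE 0.32, limma adjusted p = 0.577). It was higher in both double-mutant tumors and made up most of the family's summed FPKM, which came to 428 and 274 FPKM in the triple-mutant tumors and 474 and 532 FPKM in the double-mutant tumors. Mgst3 was 53.2 and 13.4 FPKM in the triple-mutant tumors and 35.2 and 34.6 FPKM in the double-mutant tumors and the mitochondrial and peroxisomal Gstk1 35.6 and 9.27 FPKM in the triple-mutant tumors and 62.5 and 25.98 FPKM in the double-mutant tumors, and for both genes tumor 26044 was the lowest and the genotypes overlapped.

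Of the 21 glucuronosyltransferases only 3 were tested, since the 12 Ugt2 and Ugt3 genes stayed at or under 0.00997 FPKM in every tumor. The 8 Ugt1a symbols name alternative first exons joined to the same downstream exons on chromosome 1. Ugt1a6b and Ugt1a6a, whose enzyme glucuronidates small planar phenols, were the tested ones. Ugt1a7c reached 1 FPKM in a single tumor and was not tested. Ugt1a6b was 11.1 and 12.2 FPKM in the triple-mutant tumors and 0.614 and 0.202 FPKM in the double-mutant tumors (log2 difference 3.18, SE 0.33, limma adjusted p = 0.143) and Ugt1a6a was 4.82 and 3.12 FPKM in the triple-mutant tumors and 0.0981 and 0.187 FPKM in the double-mutant tumors (log2 difference 2.101, SE 0.33, limma adjusted p = 0.225). All double-mutant values were under 1 FPKM and all triple-mutant values over 3 FPKM, so that both genes passed the filter only through the triple-mutant tumors and had to differ. Since 79.8% and 52.1% of their 50-base stretches are shared with other transcripts, the split between them is uncertain. The sum over the 8 symbols, which depends less on that split, was 16.6 and 15.4 FPKM in the triple-mutant tumors and 1.81 and 1.37 FPKM in the double-mutant tumors, 10.1-fold higher in the triple-mutant tumors, with no overlap. Ugt1a7c went the other way without overlap, at 0.397 and 0.151 FPKM in the triple-mutant tumors and 1.095 and 0.984 FPKM in the double-mutant tumors, and made up most of the locus sum in the double-mutant tumors, while 53.6% of its stretches are shared as well.

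Ugt8a makes galactosylceramide, a sphingolipid of myelin and epithelia, and conjugates galactose in place of glucuronic acid. It was 5.103 and 0.1100 FPKM in the triple-mutant tumors and 6.103 and 9.78 FPKM in the double-mutant tumors (log2 difference -1.75, SE 0.89, limma adjusted p = 0.577). Tumor 26044 was nearly without it, whereas tumor 26043 was close to the double-mutant tumors, and without tumor 26044 the log2 difference was -0.52.

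Both Cbr3 and Cbr2 were higher in both triple-mutant tumors, whereas Cbr1 and Cbr4 overlapped. Cbr3, a cytosolic reductase of quinones and other carbonyls, was 19.7 and 72.8 FPKM in the triple-mutant tumors and 1.96 and 6.61 FPKM in the double-mutant tumors (log2 difference 3.04, SE 0.81, limma adjusted p = 0.442), a 10.8-fold difference, with spread within each genotype. Cbr2, a mitochondrial carbonyl reductase known from mouse lung and adipose tissue, was 20.6 and 83.7 FPKM in the triple-mutant tumors and 18.1 and 12.5 FPKM in the double-mutant tumors (log2 difference 1.41, SE 0.72, limma adjusted p = 0.577). Tumor 26044 was far above the other 3 for Cbr2, and without it the log2 difference was 0.42. Cbr1, the reductase that also acts on prostaglandins and anthracyclines, was 46.9 and 75.5 FPKM in the triple-mutant tumors and 48.8 and 59.8 FPKM in the double-mutant tumors (log2 difference 0.14, SE 0.35, limma adjusted p = 0.9096). Ephx1, the microsomal epoxide hydrolase that opens arene and alkene epoxides to diols, was 34.5 and 45.7 FPKM in the triple-mutant tumors and 7.26 and 8.81 FPKM in the double-mutant tumors (log2 difference 2.18, SE 0.31, limma adjusted p = 0.199), a 4.98-fold difference with no overlap and little spread within the genotypes.

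**Figure D4:**
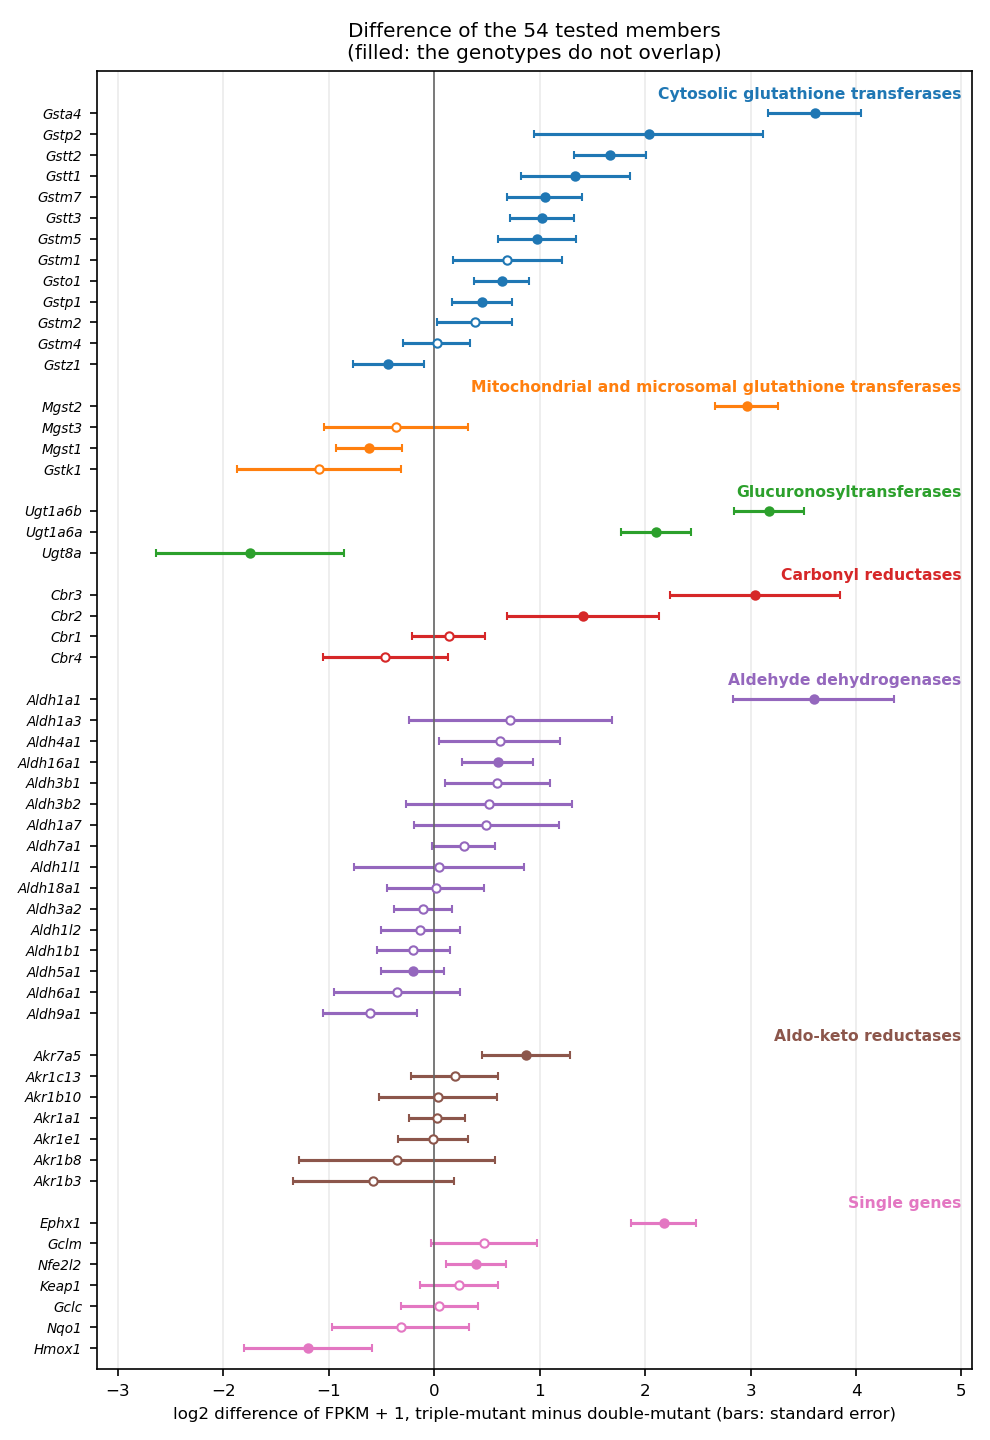
Log2 difference of FPKM + 1, triple-mutant minus double-mutant, of the 54 tested members by family, with limma's standard error as bars. Filled circles mark members whose genotypes did not overlap. Most cytosolic glutathione transferases lie to the right of 0, the aldehyde dehydrogenases and aldo-keto reductases scatter around it apart from Aldh1a1, and Mgst1, Hmox1 and Ugt8a lie to its left.

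The aldehyde dehydrogenases showed little difference as a family, with a median log2 difference of 0.16. Of 16 tested, 2 were higher in both triple-mutant tumors (12.5%, against 21.3% of all genes). In both double-mutant tumors 1 was higher (6.25%, against 22.9%). The exception was Aldh1a1, a retinaldehyde dehydrogenase often used to mark stem and progenitor cells. It was 34.1 and 7.05 FPKM in the triple-mutant tumors and 0.403 and 0.371 FPKM in the double-mutant tumors (log2 difference 3.599, SE 0.76, limma adjusted p = 0.349). Both double-mutant values were under 1 FPKM, so that Aldh1a1 passed the filter only through the triple-mutant tumors and had to differ. The triple-mutant tumors differed from each other by 2.12 log2 units. The related Aldh1a3 was 34.8 and 5.18 FPKM in the triple-mutant tumors and 5.09 and 12.4 FPKM in the double-mutant tumors, so that tumor 26043 was the highest and tumor 26044 lay within the double-mutant values. Aldh9a1, which oxidises aminoaldehydes and had the highest mean level of the aldehyde dehydrogenases among the members, was 18.2 and 32.6 FPKM in the triple-mutant tumors and 29.03 and 48.9 FPKM in the double-mutant tumors (log2 difference -0.61, SE 0.44, limma adjusted p = 0.672).

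Of 12 tested genes of a list of 15 that carry, convert or sense retinoids, 4 were higher in the triple-mutant pair (33.3%, against 21.3% of all genes) and 0 in the double-mutant pair (against 22.9%), and 8 overlapped. The median log2 difference was 0.58. Crabp2 and Cyp26b1, which bind and degrade retinoic acid, had negative differences with overlap (-1.07 and -0.95). Rdh10, which oxidises retinol to the retinaldehyde that Aldh1a enzymes use, was 50.3 and 23.4 FPKM in the triple-mutant tumors and 14.3 and 12.7 FPKM in the double-mutant tumors (log2 difference 1.29, SE 0.45, limma adjusted p = 0.488). Dhrs3, which reduces retinaldehyde back to retinol, was 74.7 and 39.5 FPKM in the triple-mutant tumors and 18.99 and 20.3 FPKM in the double-mutant tumors (log2 difference 1.42, SE 0.39, limma adjusted p = 0.463). Crabp1, a retinoic acid binding protein, was 17.9 and 11.3 FPKM in the triple-mutant tumors and 6.63 and 0.946 FPKM in the double-mutant tumors (log2 difference 1.98, SE 0.74, limma adjusted p = 0.508). Tumor 26043 held the highest value of all 3 genes, as it did for Aldh1a1, and the median of the list was 0.05 without tumor 26043.

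The aldo-keto reductases did not separate the genotypes. Of 7 tested, 1 (Akr7a5) was higher in the triple-mutant pair (14.3%, against 21.3% of all genes) and 0 in the double-mutant pair (against 22.9%). The summed family was 558 and 521 FPKM in the triple-mutant tumors and 581 and 469 FPKM in the double-mutant tumors. Akr1a1, the aldehyde reductase that also serves ascorbate synthesis in mice, made up most of that sum at 456 and 422 FPKM in the triple-mutant tumors and 451 and 412 FPKM in the double-mutant tumors (log2 difference 0.02, SE 0.27, limma adjusted p = 0.9802) and had the highest mean level of all members. Akr7a5, an aflatoxin aldehyde and succinic semialdehyde reductase, was 27.9 and 56.3 FPKM in the triple-mutant tumors and 21.2 and 21.4 FPKM in the double-mutant tumors (log2 difference 0.87, SE 0.42, limma adjusted p = 0.563), with tumor 26044 the highest. The 3 tested Akr1b genes, which reduce glucose and retinaldehyde among other substrates, overlapped between the genotypes, and tumor 26048 was the highest for each. Akr1b3 was 9.42 and 5.43 FPKM in the triple-mutant tumors and 23.6 and 5.05 FPKM in the double-mutant tumors. Akr1b8 was 26.4 and 7.81 against 40.5 and 8.503 FPKM, with tumor 26043 high as well. Akr1b10 was 24.6 and 18.1 against 34.5 and 12.1 FPKM. Of the 9 Akr1c genes, which act on steroids and prostaglandins, only Akr1c13 was tested. Akr1c18, the progesterone-degrading 20-alpha-hydroxysteroid dehydrogenase, was 4.33 and 0 FPKM in the triple-mutant tumors and 0.317 and 0.0502 FPKM in the double-mutant tumors, found at more than 1 FPKM in tumor 26043 alone.

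Of the 7 single genes, Ephx1 and Nfe2l2 were higher in both triple-mutant tumors (28.6%, against 21.3% of all genes). Hmox1 was higher in both double-mutant tumors (14.3%, against 22.9%), and Nqo1, Gclc, Gclm and Keap1 overlapped. Nfe2l2 was 32.8 and 42.98 FPKM in the triple-mutant tumors and 28.9 and 27.8 FPKM in the double-mutant tumors (log2 difference 0.39, SE 0.29, limma adjusted p = 0.6701), higher in both triple-mutant tumors by a small margin. Keap1, the adaptor through which NRF2 is degraded, was 40.7 and 25.4 FPKM in the triple-mutant tumors and 32.2 and 23.1 FPKM in the double-mutant tumors (log2 difference 0.23, SE 0.37, limma adjusted p = 0.846), and the genotypes overlapped. Nqo1, the quinone reductase most often used as a readout of NRF2, was 10.1 and 8.96 FPKM in the triple-mutant tumors and 23.1 and 6.12 FPKM in the double-mutant tumors (log2 difference -0.32, SE 0.65, limma adjusted p = 0.885), high in tumor 26048 only.

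Gclc and Gclm encode the catalytic and modifier subunits of the enzyme that limits glutathione synthesis. Gclc was 14.3 and 12.96 FPKM in the triple-mutant tumors and 10.02 and 17.1 FPKM in the double-mutant tumors (log2 difference 0.05, SE 0.37, limma adjusted p = 0.9704), and Gclm was 52.7 and 71.5 FPKM in the triple-mutant tumors and 28.1 and 68.4 FPKM in the double-mutant tumors (log2 difference 0.47, SE 0.51, limma adjusted p = 0.771). Both overlapped between the genotypes. Hmox1, the heme oxygenase induced by heme and oxidants and abundant in macrophages, was 12.98 and 17.4 FPKM in the triple-mutant tumors and 20.03 and 63.1 FPKM in the double-mutant tumors (log2 difference -1.196, SE 0.61, limma adjusted p = 0.577). It was higher in both double-mutant tumors, chiefly in tumor 26050, and without that tumor the log2 difference was -0.39. The macrophage markers given above were also higher there, and their part in the Hmox1 level was not tested.

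A list of 21 other NRF2 target genes, none of them members, leaned the other way from the transferases. Of 19 tested, 1 (Blvrb) was higher in both triple-mutant tumors (5.26%, against 21.3% of all genes). In both double-mutant tumors 7 were higher (36.8%, against 22.9%), and the median log2 difference was -0.45. Prdx6, a peroxiredoxin that reduces phospholipid hydroperoxides, was 87.8 and 53.4 FPKM in the triple-mutant tumors and 116 and 253 FPKM in the double-mutant tumors (log2 difference -1.31, SE 0.50, limma adjusted p = 0.511). Me1 and Pgd, which supply NADPH, were 31.7 and 55.9 against 63.7 and 102 FPKM and 73.1 and 61.7 against 92.9 and 175 FPKM, with log2 differences of -0.92 and -0.92. Tumor 26050 held the highest value of all 3 genes. The median of the list was -0.29 without tumor 26050 and between -0.76 and -0.27 over the 4 fits that left out a tumor, and it stayed between -0.50 and -0.45 under the other scalings. Among 10 partners and regulators of NRF2, 3 were higher in both double-mutant tumors (Maff, -0.55; Cul3, -0.47; Rbx1, -0.17) and 0 in both triple-mutant tumors, against 22.9% and 21.3% of all genes. The median of these 10 was -0.15, and it was 0.07 without tumor 26050. Both medians include Nfe2l1, which was listed at 0 in tumors 26043 and 26048 and at 44.6 and 53.9 FPKM in the others. Its log2 difference was -0.14 over all tumors and 2.75 without tumor 26050. No difference is drawn from Nfe2l1, nor from the sign of the median without tumor 26050.

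**Figure D5:**
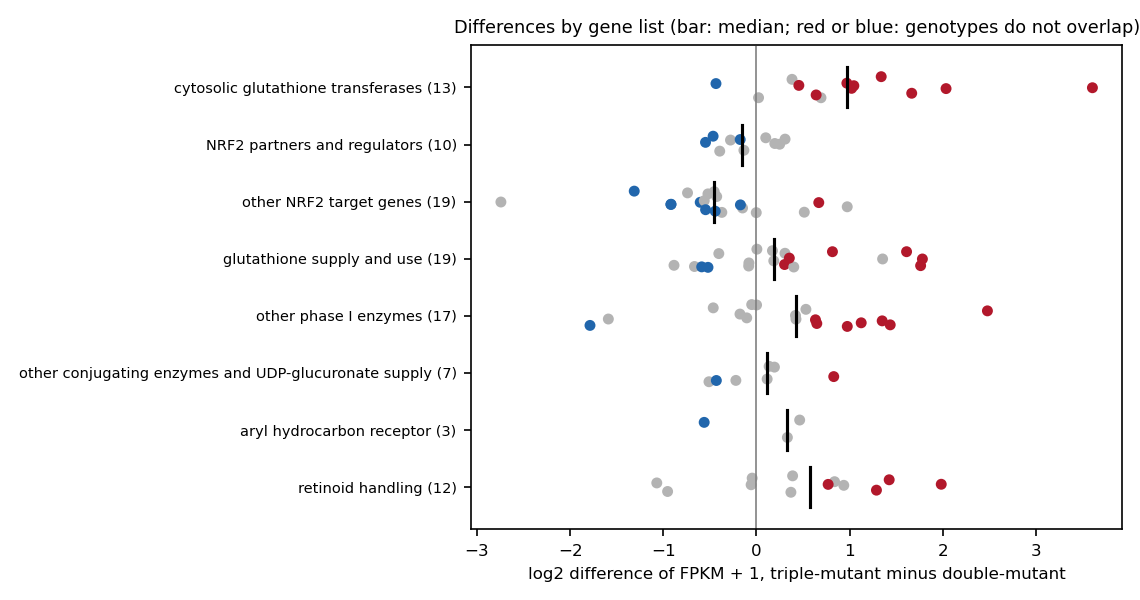
Log2 difference, triple-mutant minus double-mutant, of the tested cytosolic glutathione transferases and of the tested genes of 7 lists of related genes, with the number tested in parentheses. Each point is a gene, red where it was higher in both triple-mutant tumors, blue where it was higher in both double-mutant tumors and grey where the genotypes overlapped, and the bar is the median. The median is 0.97 for the transferases, the 3 theta class genes included, and -0.45 for the other NRF2 target genes.

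Of 19 tested genes of glutathione supply and use, 6 were higher in both triple-mutant tumors and 2 in both double-mutant tumors, with a median log2 difference of 0.19. These are 31.6% and 10.5%, against 21.3% and 22.9% of all genes, and without Ggt5, which passed the filter only through the triple-mutant tumors and so had to differ, 5 of 18 (27.8%) were higher in the triple-mutant pair. Gpx7 and Gpx8, peroxidases of the endoplasmic reticulum, were 8.56 and 34.6 against 5.34 and 3.67 FPKM and 29.3 and 36.6 against 15.3 and 6.505 FPKM (log2 differences 1.76 and 1.61). Ggt5, a gamma-glutamyl transferase, was 1.33 and 12.8 against 0.989 and 0.372 FPKM (1.78), and it lies in the chromosome 10 segment beside the theta genes. Gpx4, which removes lipid hydroperoxides from membranes, was 491 and 1155 against 439 and 416 FPKM (0.82). For all 4 genes tumor 26044 was the highest, and without it the log2 differences were 0.81 for Gpx7, 1.46 for Gpx8, 0.499 for Ggt5 and 0.199 for Gpx4.

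Of 17 tested phase I genes, which oxidise or hydrolyse compounds before conjugation, 7 were higher in the triple-mutant pair and 1 in the double-mutant pair, with a median of 0.42. These are 41.2% and 5.88%, against 21.3% and 22.9% of all genes. Fmo2 and Cyp2s1 passed the filter only through the triple-mutant tumors and so had to differ, and without them 5 of 15 (33.3%) were higher in the triple-mutant pair. Cyp1b1, a cytochrome P450 that hydroxylates estradiol, was 16.8 and 24.2 FPKM in the triple-mutant tumors and 5.85 and 1.11 FPKM in the double-mutant tumors (log2 difference 2.48, SE 0.66, limma adjusted p = 0.442). Fmo2, a flavin monooxygenase, was 5.92 and 1.14 against 0.966 and 0.0308 FPKM (log2 difference 1.44), and without tumor 26043 the difference was 0.59. Aldh2, the mitochondrial dehydrogenase of acetaldehyde that the symbol pattern left out, was 263 and 477 FPKM in the triple-mutant tumors and 139 and 137 FPKM in the double-mutant tumors (log2 difference 1.35, SE 0.38, limma adjusted p = 0.466), with no overlap. Xdh, the xanthine dehydrogenase of milk fat globule secretion, was lower in both triple-mutant tumors, at 11.7 and 7.23 against 30.9 and 37.95 FPKM (log2 difference -1.79, SE 0.35, limma adjusted p = 0.323).

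The aryl hydrocarbon receptor, which induces Cyp1a1, Cyp1b1 and Ugt1a6 genes, lay between 1.81 and 10.3 FPKM, and the genotypes overlapped. Cyp1a1, its most responsive target, stayed at or under 0.0587 FPKM in all tumors. Of the 3 tested genes of the receptor list, 1 (Tiparp, -0.56) was higher in both double-mutant tumors (33.3%, against 22.9% of all genes). In both triple-mutant tumors 0 were higher (against 21.3%). Of 7 tested genes of other conjugation and of UDP-glucuronate supply, 1 was higher in each genotype's pair of tumors (14.3% each, against 21.3% and 22.9% of all genes). Slc35d1, which carries UDP-glucuronate into the endoplasmic reticulum, was higher in the triple-mutant pair, at 5.18 and 5.17 against 3.08 and 1.96 FPKM (0.83). Ugp2, which makes UDP-glucose, was higher in the double-mutant pair, at 22.1 and 15.4 against 23.8 and 26.6 FPKM (-0.43).

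Tumors of the same genotype also differed from each other. The median log2 difference between the tumors of a genotype was 0.55 over the tested members in the triple-mutant and 0.42 in the double-mutant pair, against 0.45 and 0.36 over all genes. A gap of more than 2 log2 units was seen in 6 members within the triple-mutant pair (Akr1c18, Aldh1a1, Aldh1a3, Aldh3b2, Gstp2 and Ugt8a) and in 4 within the double-mutant pair (Akr1b3, Akr1b8, Aldh1l1 and Gsta3). Aldh3b2 was 5.54 and 0.4899 FPKM in the triple-mutant tumors and 1.67 and 0.7796 FPKM in the double-mutant tumors, and 24.2% of its 50-base stretches occur elsewhere. Aldh1l1, the folate enzyme that oxidises formyl-tetrahydrofolate, was 1.69 and 3.36 FPKM in the triple-mutant tumors and 5.98 and 0.576 FPKM in the double-mutant tumors. Tumor 26048, which held the highest Aldh1l1, also held adipocyte markers: the 6 of that list summed to 1398 FPKM there against 7.596 to 263 FPKM in the other tumors, with Adipoq at 55.95 FPKM there and under 1 FPKM elsewhere. Tumor 26050 held skeletal muscle markers at a sum of 28.9 FPKM, against 0.627 to 0.689 FPKM elsewhere. Neither set was high in both tumors of a genotype, and their part in the levels of these members was not tested.

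Promoter entries of 300 bases, from 250 before to 50 after the start, were found in RefSeq for 44 of the 54 tested members. The antioxidant response element core TGACNNNGC, searched on both strands, was in a promoter of 6 of them (13.6%), namely Aldh9a1, Gclm, Gstm5, Gstm7, Mgst1 and Nfe2l2, and in a promoter of 17.5% of the tested genes with an entry. Of the 16 with an entry that were higher in both triple-mutant tumors, 3 (18.8%) held it. The core TNGCGTG, which the aryl hydrocarbon receptor binds, was in a promoter of 3 of the 44 (6.82%), in 0 of those 16, and in 9.44% of the tested genes. These are matches of letters in a short window and say nothing of elements farther from the start.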

How the data were processed

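PolyA RNA of 4 tumors was sequenced as strand-specific 50-base single-end reads. The authors aligned reads with TopHat2 2.0.10 and Bowtie 0.12.9 and estimated expression with Cufflinks 2.1.1, per the submitters' processing notes and the study's methods. The deposited values are FPKM with lower and upper bounds of the estimate, also in FPKM, for 23746 genes on mm10 (GRCm38). Starts were raised by 1 to count from 1. No read counts were used here, and HTSeq counts and DESeq2 tests of the authors were not analysed here.

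A gene entered the test if 2 or more tumors had 1 FPKM or more (12752 genes). A linear model of log2(FPKM + 1) on genotype was run in limma 3.58.1 (R 4.3.3) with a trended eBayes prior. P-values were adjusted by Benjamini-Hochberg across those genes, with 0.05 as threshold. The fit was tested on simulated data. The members and gene lists were chosen with earlier results of these data known. Named were the 7 single genes, in each family the members without overlap and at least 1 log2 unit apart, the member of smallest p and that of highest level, up to 3 genes of each list without overlap, and members whose tumors of a genotype differed by more than 2 log2 units. Gpx4, Aldh2, Ahr, Cyp1a1, Nfe2l1, Blvrb and further members without these properties were named after their values were seen. Shared 50-base stretches were counted in GENCODE M21 transcripts. The depth of the libraries is unknown. In each tumor, 19 to 30 members had an FPKM outside their own deposited interval, and the FPKM was used as given. They include Gsto1, Gstm1, Cbr1, Cbr2, Akr1a1 and Akr7a5 in all 4 tumors and Cbr3 in 3. In tumor 26044 Cbr2 was 83.7 FPKM with an interval of 46.1 to 53.6, and Akr7a5 was 56.3 FPKM with an interval of 27.5 to 31.9.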

Additional observations from a re-analysis of the deposited data

How the results depend on the processing

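No paired analysis was possible because the labels give the genotypes no shared replicate numbers, and the study speaks of littermates without saying which tumors share a litter. No member passed the threshold under any alternative run. Over all genes, 6 passed with quantile normalization, 5 without the trend in limma and 1 with the midpoint of the Cufflinks interval, and 0 with every other setting, pseudocount 0.1, other filters and TPM included. With each tumor left out in turn, 26 to 29 members were higher in the triple-mutant and 10 to 14 in the double-mutant tumors, but separation from a lone tumor is easier, and 30.8% to 40.2% and 31.9% to 45.1% of all genes then did so. The lone tumor is assumed to vary like the others. The members' median log2 difference was 0.25 to 0.43 in those fits and 0.05 with no filter on low values, where 27 members were higher in the triple-mutant and 7 in the double-mutant tumors. Without members that share stretches with other genes it was 0.14, with 15 members higher in the triple-mutant tumors. The counts without the theta class and without members that passed the filter through 1 genotype, lists included, and the fits of list genes without each tumor were added after seeing the data. Gsta4 stood at 3.61 and Aldh1a1 at 3.599, but with pseudocount 0.1 Aldh1a1 (5.01), Ugt1a6b (4.66) and Ugt1a6a (4.06) lay above Gsta4 (3.77). Small differences changed sign: Akr1a1 was -0.0071 after rescaling to TPM and -0.0063 after median centring, and ranged from -0.042 to 0.091 with a tumor left out. Over the same fits Gclc ranged from -0.31 to 0.41, Gclm from -0.15 to 1.10, Keap1 from -0.10 to 0.56, Cbr1 from -0.20 to 0.47 and Nqo1 from -1.20 to 0.56. The cause was not tested. The other 20 of the 26 members recomputed this way kept their direction under every alternative. With 2 tumors a genotype and no read counts, the precision of low values is unknown.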
